A study of Homo sapiens with 14 samples.

Results

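The 34 genes described here encode the transcription factor NRF2 with its inhibitor KEAP1 and the enzymes and binding proteins of the antioxidant and glutathione systems. They were taken by gene symbol from a list of such genes, which was drawn up with earlier results of these data known. All 34 were found among the 62703 genes counted, and 31 of them were among the 7086 genes with enough counts to be tested. SRXN1, the enzyme that repairs overoxidized peroxiredoxins, was at 0 counts in all 14 libraries. It overlaps another gene model on its strand, also at 0, and whether the counting dropped reads shared by both was not tested. The 0 counts therefore do not show that SRXN1 was absent. GSTP1 and MT1X had too few counts in LNCaP and 22Rv1 for a test.

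Messenger RNA was measured by 3′ tag sequencing in 3 established prostate cancer cell lines, each exposed for 3 days to 1.5 µM SEL120-34A or to DMSO, the solvent. SEL120-34A inhibits CDK8 and CDK19, the kinases of the Mediator complex, through which transcription factors reach RNA polymerase. LNCaP expresses the androgen receptor and responds to enzalutamide, a drug that blocks this receptor, whereas 22Rv1 carries a constitutively active receptor variant and resists the drug, and PC3 lacks the receptor. LNCaP and 22Rv1 had 3 libraries per arm and PC3 had 1 per arm. Each line stands for 1 tumor, and the study's methods describe its experiments in general as done in biological replicates. The labels do not say whether the libraries of an arm came from separate cultures, so p-values measure the spread between these libraries, which may be technical.

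NRF2, the product of NFE2L2, is held in the cytosol and passed on for degradation by KEAP1. Oxidants and electrophiles release it, and it then binds antioxidant response elements near genes for glutathione synthesis, NADPH supply, quinone reduction and iron storage. Glutathione and thioredoxin carry reducing power from NADPH to the peroxidases, and glutathione transferases attach glutathione to reactive compounds. Ferritin stores iron that would otherwise generate radicals, and metallothioneins bind zinc and other metals and are induced through metal response elements. GSTP1 is best known in prostate tissue as a gene whose promoter is commonly methylated in carcinoma, and methylation was not measured here.

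Total counts per library ranged from 246063 to 909176, and all 3 treated 22Rv1 libraries were shallower than their controls. LNCaP libraries had 412881 to 759548 counts with DMSO and 291056 to 519928 with SEL120-34A, ranges that overlapped. PC3 had 909176 counts with DMSO and 581208 with SEL120-34A. Mitochondrially encoded genes took 13.9 to 17.3% of the counts in LNCaP with DMSO and 16.5 to 23.3% with SEL120-34A, and 7.60 to 9.82% and 9.52 to 13.1% in 22Rv1. Levels are given as CPM, counts scaled to a common library size, and since tags come from the 3′ end of a transcript they were not divided by gene length. The summed level of 7 markers of androgen receptor positive luminal cells was 2949 to 3377 CPM in LNCaP with DMSO, 564 to 745 in 22Rv1 and 105 in PC3. The summed level of 5 PC3 markers was 2988 CPM in PC3 with DMSO and at most 79.9 in the libraries of the other lines. The labels of the lines and these markers were therefore not in conflict.

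Promoter sequences are shown for 4 genes on which the results below turn, GCLC and MT2A because their responses differed between LNCaP and 22Rv1, ME1 because it had the largest difference between the untreated lines, and GSTP1 because, of the 3 lines, PC3 alone had more than a few counts of it. Each is the 250 bases before the RefSeq start of the gene on GRCh38.p14, written 5′ to 3′ on the strand of the gene, and 25 of the 34 genes had an entry. Capitals mark the core of the antioxidant response element, TGACNNNGC, and of the metal response element, TGCACNC or TGCGCNC, on either strand.
GCLC (chr6:53545102-53545351, minus strand): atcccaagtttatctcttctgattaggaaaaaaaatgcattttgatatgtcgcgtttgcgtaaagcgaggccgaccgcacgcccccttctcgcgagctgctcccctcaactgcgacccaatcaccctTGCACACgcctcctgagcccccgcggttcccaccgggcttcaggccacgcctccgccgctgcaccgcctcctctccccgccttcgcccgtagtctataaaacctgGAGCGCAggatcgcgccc
MT2A (chr16:56608334-56608583, plus strand): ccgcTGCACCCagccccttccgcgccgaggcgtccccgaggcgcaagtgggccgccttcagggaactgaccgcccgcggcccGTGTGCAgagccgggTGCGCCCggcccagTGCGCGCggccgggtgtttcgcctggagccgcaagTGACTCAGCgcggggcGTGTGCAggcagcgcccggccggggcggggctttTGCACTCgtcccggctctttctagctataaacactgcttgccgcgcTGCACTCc
GSTP1 (chr11:67583562-67583811, plus strand): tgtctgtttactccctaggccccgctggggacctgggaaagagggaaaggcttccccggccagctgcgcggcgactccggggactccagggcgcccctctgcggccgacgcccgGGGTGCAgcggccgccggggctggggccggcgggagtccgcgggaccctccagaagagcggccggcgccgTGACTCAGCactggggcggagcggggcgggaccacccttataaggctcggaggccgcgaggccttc
ME1 (chr6:83431052-83431301, minus strand): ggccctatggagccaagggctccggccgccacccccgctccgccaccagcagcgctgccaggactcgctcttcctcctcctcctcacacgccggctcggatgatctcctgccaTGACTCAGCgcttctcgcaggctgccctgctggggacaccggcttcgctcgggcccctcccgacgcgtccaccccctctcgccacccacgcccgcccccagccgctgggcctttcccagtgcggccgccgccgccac

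The MT2A window held 7 metal response cores and 1 antioxidant response core, the latter from -104 to -96 relative to the start. Of 35116 promoter windows of this length, 24.83% held at least 1 metal response core and 11 (0.031%) held 7 or more. An antioxidant response core was present in 10.91% of all windows and in 7 of the 25 windows of the genes described here, among them ME1 at -137 and GSTP1 at -66. In MT2A, ME1 and GSTP1 these letters overlapped an AP-1 site, TGANTCA, which 6.57% of windows held. GCLC had 2 metal response cores and no antioxidant response core within these 250 bases. The GSTP1 window held 28 CpG dinucleotides, against a median of 11 over all windows. This number was not particular to GSTP1, since the MT2A, ME1 and GCLC windows held 32, 25 and 24. These matches describe letters and not bound sites.

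The levels in DMSO were compared first, to describe the antioxidant makeup of each line before treatment. LNCaP and 22Rv1 differed in 21 of the 31 tested genes (edgeR quasi-likelihood test, Benjamini-Hochberg adjusted p under 0.05 over all tested genes), 13 higher and 8 lower in LNCaP. Over all tested genes the share called in this comparison was 49%, 24% higher and 25% lower. LNCaP had more mRNA of ME1, MGST1, BLVRB, FTH1 and TALDO1, and 22Rv1 had more of MT2A, GSTK1, GCLC, SOD2 and FTL. The libraries of the lines did not overlap for 23 of the 31 genes, 16 higher and 7 lower in LNCaP, against 56.4% of all tested genes, 27.5% higher and 28.9% lower. The median log2 difference, LNCaP minus 22Rv1, was 0.28 for these genes and -0.03 for all genes.

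**Figure D1:**
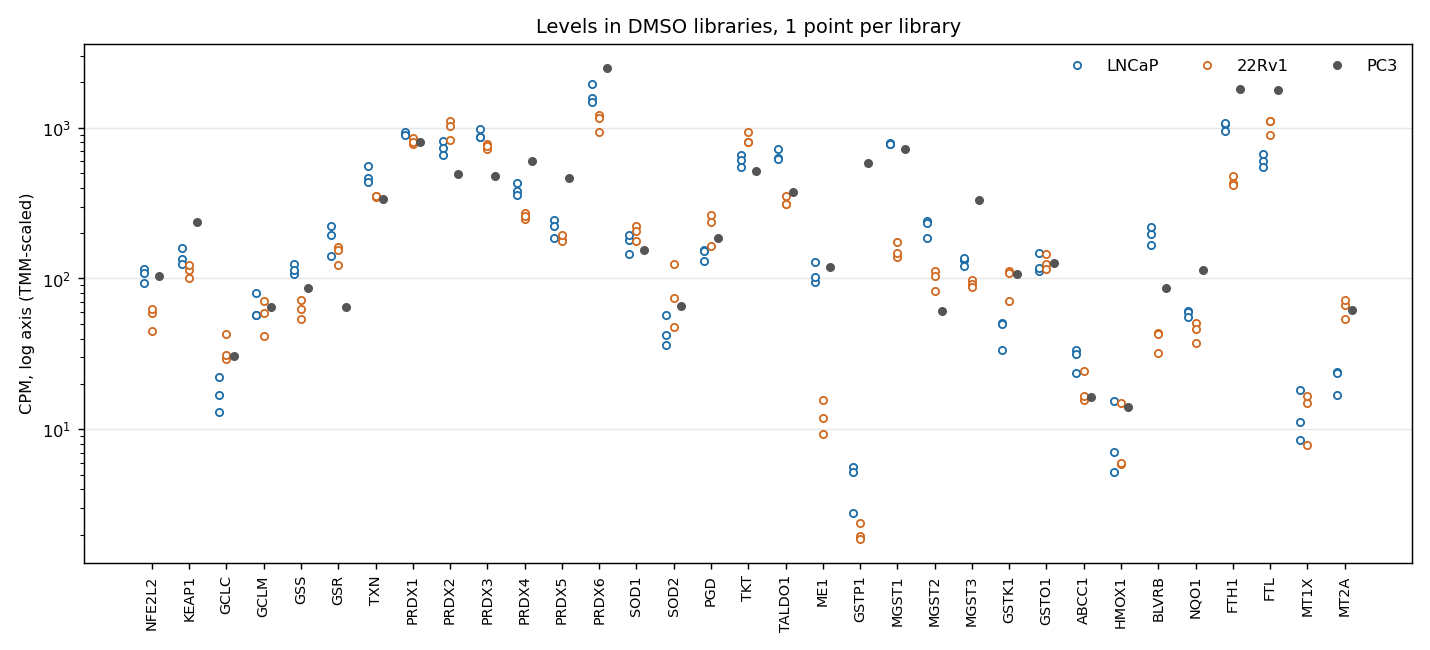
Level of each of the genes in the DMSO libraries, in CPM on a log axis, with 1 point per library for LNCaP (blue), 22Rv1 (orange) and PC3 (grey). ME1, MGST1 and BLVRB are lower in 22Rv1 than in LNCaP, and GSTP1 is at 582 CPM in PC3 and at most 5.63 in the other lines. SRXN1, at 0 in every library, and MT1X in PC3, at 0, are not drawn.

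To determine how the genes responded to the Mediator kinase inhibitor, treated and control libraries of each line were compared in the same model. In LNCaP, 4 of the 31 genes rose (GCLC, MT2A, FTH1 and FTL), none fell and 27 were not called. Over all tested genes 2.77% were called in LNCaP, 1.99% with a rise and 0.776% with a fall. In 22Rv1, 3 genes rose (FTH1, TXN and TKT), none fell and 28 were not called, and over all tested genes 5.7% were called, 4.15% with a rise and 1.55% with a fall. FTH1 was the 1 gene called in both lines. At an unadjusted p under 0.05 there were 9 of the 31 genes (29.0%) in LNCaP, against 13.5% of all tested genes, and 8 (25.8%) in 22Rv1, against 19.1%.

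The fold changes of most of the genes were small. The median log2 fold change was 0.04 in LNCaP and 0.07 in 22Rv1, against 0.00076 and 0.0025 over all tested genes. The arms were apart, with no overlap, for 8 genes in LNCaP, 7 higher and 1 lower, where the shares over all genes were 19.4% in all, 8.76% higher and 10.7% lower. In 22Rv1 they were apart for 9 genes, 7 higher and 2 lower, where the shares were 23%, 12.4% and 10.5%. With the mitochondrially encoded genes removed before scaling, the same 4 and 3 genes were called. In bulk RNA, fewer cells with a transcript and less of it per cell cannot be told apart.

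**Figure D2:**
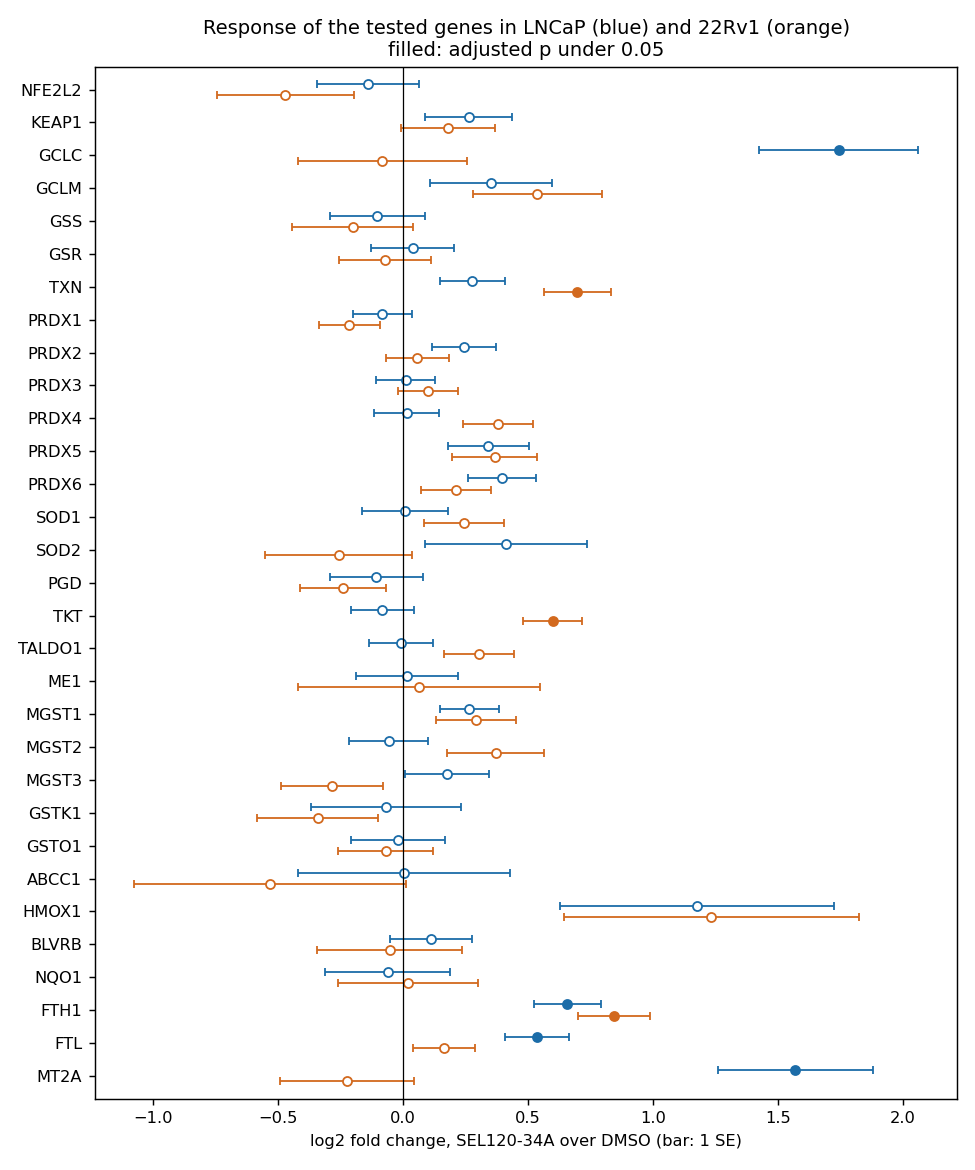
Log2 fold change of SEL120-34A over DMSO for the 31 tested genes in LNCaP (blue) and 22Rv1 (orange), with bars of 1 SE and filled points where the adjusted p was under 0.05. GCLC and MT2A stand apart in LNCaP at 1.74 and 1.57, and FTH1 is filled in both lines.

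The difference between the responses was tested as an interaction, LNCaP minus 22Rv1. It was called for GCLC and MT2A, with the more positive response in LNCaP, and for TKT, with the more positive response in 22Rv1. Over all tested genes 0.734% were called in this comparison, 0.268% more positive in LNCaP and 0.466% more positive in 22Rv1, and 5 of the 31 genes (16.1%) had an unadjusted p under 0.05, against 11.4% of all tested genes. The 3 calls lay near the threshold and were lost without many of the libraries, as given with each gene below.

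The NRF2 switch itself was not called in either line. NFE2L2 was at 93.0, 115 and 109 CPM in the LNCaP controls and at 85.8, 84.0 and 106 after SEL120-34A, and the arms overlapped. In 22Rv1 it was at 58.9, 44.9 and 63.2 CPM in the controls and at 33.1, 51.5 and 39.9 after treatment, also with overlap. Its log2 fold change was -0.14 ± 0.21 (SE, 95% interval -0.55 to 0.27) in LNCaP and -0.47 ± 0.27 (-1.02 to 0.08, adjusted p 0.367) in 22Rv1. Between the untreated lines all 3 LNCaP libraries lay above all 3 22Rv1 libraries, a log2 difference of 0.89 ± 0.20 (adjusted p 0.000334). KEAP1, the adaptor that targets NRF2 for degradation, was at 135, 160 and 124 CPM in LNCaP controls and 187, 160 and 146 in treated LNCaP. The corresponding KEAP1 values were 114, 101 and 123 CPM and 146, 116 and 117 CPM in 22Rv1. The arms of both lines overlapped, and the log2 fold changes were 0.26 ± 0.17 and 0.18 ± 0.19. NRF2 activity is set largely by protein stability, which these counts do not measure.

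In glutathione synthesis, GCLC rose in LNCaP. GCLC (ENSG00000001084.13, chromosome 6, 53497341 to 53616970, minus strand) encodes the catalytic subunit of glutamate-cysteine ligase, the rate-limiting enzyme of glutathione synthesis. In LNCaP it was at 16.9, 13.1 and 22.4 CPM with DMSO and at 58.5, 65.1 and 57.0 with SEL120-34A. The lowest treated library thus lay well above the highest control. Mean levels were 17.5 ± 4.66 and 60.2 ± 4.28 CPM (SD, 3 libraries each), a log2 fold change of 1.74 ± 0.32 (SE, adjusted p 0.000533). These levels rest on 5 to 16 counts per control library and 15 to 27 per treated library.

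In 22Rv1, GCLC was at 29.4, 43.05 and 31.0 CPM with DMSO and at 27.6, 51.5 and 22.8 with SEL120-34A. The arms overlapped, with a log2 fold change of -0.08 ± 0.34 (95% interval -0.76 to 0.60). The treated LNCaP libraries lay above all 22Rv1 libraries, and the LNCaP controls below all of them. The interaction was 1.82 ± 0.46 on the log2 scale (adjusted p 0.0450). This call was kept without LNCaP DMSO replicate 3, LNCaP SEL120-34A replicate 3 or 22Rv1 SEL120-34A replicate 2 (adjusted p 0.0472, 0.04997 and 0.0258) and lost without any of the other 9 libraries (0.0503 to 0.166). In DMSO, GCLC was lower in LNCaP than in 22Rv1 by a log2 difference of -0.90 ± 0.32 (adjusted p 0.0195), and leaving out 22Rv1 DMSO replicate 2 (0.0847) or LNCaP DMSO replicate 1 (0.0674) or 2 (0.0667) ended that call. It was also lost with DESeq2 (0.0611) and with thinned libraries (0.194), and over all alternatives the adjusted p ran from 0.00461 to 0.194. With all libraries thinned to 246063 counts, the rise in LNCaP had an adjusted p of 0.171.

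The other genes of glutathione synthesis and recycling were not called in either treated line. GCLM, the regulatory subunit of the ligase, was at a log2 fold change of 0.35 ± 0.24 in LNCaP and of 0.54 ± 0.26 in 22Rv1 (adjusted p 0.244). The ratio of GCLC to GCLM counts within a library was 0.276 ± 0.0993 with DMSO and 0.738 ± 0.132 with SEL120-34A in LNCaP, and 0.616 ± 0.122 and 0.408 ± 0.106 in 22Rv1, with no overlap between arms in either line. The exact two-sided permutation p was 0.1 in each, the smallest that 3 against 3 libraries can give, so neither ratio passed the threshold. In 22Rv1 the gap between the arms was narrow, with the lowest control at 0.5 and the highest treated library at 0.476. Those treated libraries had 8 to 12 GCLC counts each. GSS, which completes glutathione, was at 107, 126 and 113 CPM in LNCaP controls and at 62.8, 54.3 and 71.6 CPM in 22Rv1 controls, a log2 difference of 0.84 ± 0.19 with no overlap (adjusted p 0.000278). GSR, which regenerates glutathione from its oxidized form, differed by 0.37 ± 0.16 (adjusted p 0.0486), and this call was lost in 15 of 24 alternatives.

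MT2A, the most widely expressed metallothionein, also rose in LNCaP. MT2A (ENSG00000125148.7, chromosome 16, 56608584 to 56609497, plus strand) was at 23.9, 23.6 and 16.8 CPM in the LNCaP controls and at 70.2, 46.1 and 69.7 after SEL120-34A. No treated library overlapped a control, and mean levels were 21.4 ± 4.03 and 62.0 ± 13.8 CPM (SD), a log2 rise of 1.57 ± 0.31 (SE) with an adjusted p of 0.00149. In 22Rv1 it was at 66.7, 54.3 and 71.6 CPM with DMSO and at 71.7, 60.1 and 34.2 with SEL120-34A. These arms overlapped (-0.22 ± 0.27, 95% interval -0.77 to 0.32).

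The MT2A level of treated LNCaP was thus within the range of the 22Rv1 libraries, and in DMSO LNCaP was lower than 22Rv1 by a log2 difference of -1.61 ± 0.28 (adjusted p 7.90e-06). The interaction was 1.79 ± 0.41 (adjusted p 0.0237). It was lost without LNCaP DMSO replicate 3, LNCaP SEL120-34A replicate 1 or 3, 22Rv1 DMSO replicate 3 or 22Rv1 SEL120-34A replicate 3 (adjusted p 0.0546 to 0.0798) and kept without any of the other 7 (0.0113 to 0.0359). MT1X, another metallothionein, had 6 to 8 counts in the LNCaP controls and 7 to 9 in the treated LNCaP libraries and was not tested. Scaled to library size, these were 8.45 to 18.3 CPM and 16.9 to 35.1 CPM, and the arms overlapped. Metallothionein genes are similar in sequence, and the counting could divide reads between them.

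Of the ferritin chains, FTH1 rose after SEL120-34A in both lines and FTL in LNCaP. FTH1 (ENSG00000167996.16, chromosome 11, 61959718 to 61967634, minus strand), the heavy chain that oxidizes iron for storage, was at 1052, 1079 and 958 CPM in LNCaP controls and at 1758, 1499 and 1512 in treated LNCaP. In 22Rv1 it was at 475, 430 and 420 CPM in controls and at 683, 1047 and 650 in treated cells. The arms of neither line overlapped. FTH1 rose by a log2 fold change of 0.66 ± 0.13 in LNCaP (1.58-fold, adjusted p 0.00199) and of 0.84 ± 0.14 in 22Rv1 (1.79-fold, adjusted p 0.000111). Each rise was called without any single library, with adjusted p up to 0.0299 in LNCaP and 0.00549 in 22Rv1.

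FTL (ENSG00000087086.15, chromosome 19, 48965309 to 48966879, plus strand), the light chain that holds the iron core, was at 673, 600 and 552 CPM in LNCaP controls and at 936, 900 and 762 after treatment. The arms did not overlap, and the log2 fold change was 0.54 ± 0.13 (adjusted p 0.0129). Leaving out LNCaP DMSO replicate 2 (adjusted p 0.0675) or 3 (0.118) ended the call, as did leaving out LNCaP SEL120-34A replicate 1 (0.0958) or 2 (0.0966). It was lost in 6 of 24 alternatives in all, the other two being no filter and limma-trend. In 22Rv1, FTL was at 1113, 895 and 1112 CPM with DMSO and at 1080, 1206 and 1187 with SEL120-34A. These arms overlapped (0.16 ± 0.12, 95% interval -0.09 to 0.42, adjusted p 0.520), and the interaction for FTL was not called (0.37 ± 0.18, adjusted p 0.424).

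The chains also differed between the untreated lines, in opposite directions. FTH1 was higher in LNCaP by a log2 difference of 1.22 ± 0.14 (adjusted p 1.04e-09), and FTL was lower by -0.77 ± 0.12 (adjusted p 2.25e-06). The FTH1 to FTL count ratio was 1.70 ± 0.122 in LNCaP controls and 0.429 ± 0.0518 in 22Rv1 controls. After SEL120-34A it was 1.84 ± 0.162 in LNCaP, with overlap (exact two-sided permutation p 0.3), and 0.683 ± 0.166 in 22Rv1, without overlap (p 0.1, the smallest possible). FTH1 and FTL have 25 and 16 annotated pseudogenes, which held 22.2 to 29.0% and 8.84 to 12% of the counts of gene and pseudogenes together, and adding those counts left the same genes called.

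**Figure D3:**
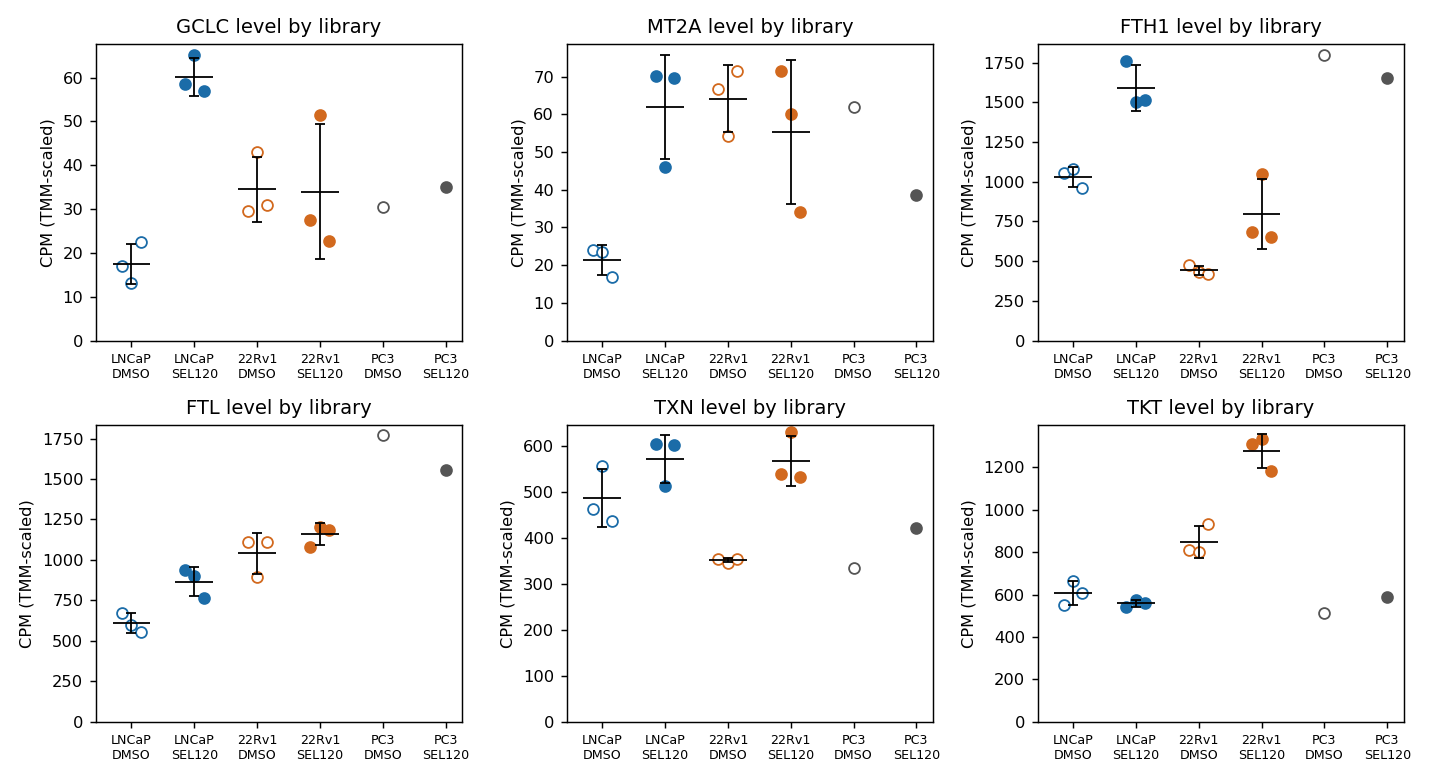
Level of the 6 genes called in LNCaP or 22Rv1, in CPM from 0, with 1 point per library, open for DMSO and filled for SEL120-34A; bars are mean and SD of 3 libraries, and PC3 has 1 library per arm and no bar. Treated GCLC and MT2A libraries lie above the controls in LNCaP, whereas the ranges of the arms overlap in 22Rv1. Treated TKT and TXN libraries lie above the controls in 22Rv1.

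The remaining genes of heme, quinone and iron handling were not called after treatment. HMOX1, heme oxygenase and a classical NRF2 target, had 5, 2 and 11 counts in the LNCaP controls and 8, 12 and 4 in the treated libraries. In 22Rv1 it had 3, 8 and 5 counts and then 7, 9 and 3. The arms of both lines overlapped, and the log2 fold changes were 1.18 ± 0.55 (95% interval 0.073 to 2.28, adjusted p 0.320) and 1.23 ± 0.59 (0.043 to 2.42, adjusted p 0.238). These intervals lay above 0, and neither change passed after adjustment over all tested genes. NQO1, the quinone reductase often used as a readout of NRF2, had log2 fold changes of -0.06 ± 0.25 (95% interval -0.57 to 0.45) and 0.02 ± 0.28 (-0.55 to 0.59). BLVRB, a biliverdin and flavin reductase, was at 199, 220 and 168 CPM in LNCaP controls and 43.2, 31.8 and 42.9 in 22Rv1 controls. That difference, 2.28 ± 0.19 on the log2 scale (adjusted p 5.15e-13), separated the lines with no overlap and was kept in all 23 alternatives that tested it.

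Among thioredoxin and the peroxiredoxins, TXN rose in 22Rv1. TXN (ENSG00000136810.13, chromosome 9, 110243810 to 110256507, minus strand) encodes thioredoxin, which reduces the peroxiredoxins and other proteins. In 22Rv1 it was at 353, 346 and 354 CPM with DMSO and at 540, 631 and 533 with SEL120-34A. The controls were nearly equal and all treated libraries lay above them, a log2 fold change of 0.70 ± 0.13 (1.62-fold, adjusted p 0.000594). In LNCaP it was at 463, 558 and 438 CPM with DMSO and at 604, 512 and 602 after treatment, with overlap (0.28 ± 0.13, 95% interval 0.02 to 0.54, adjusted p 0.321). The interaction for TXN was -0.42 ± 0.19 and not called (adjusted p 0.379).

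None of the 6 peroxiredoxins was called after treatment. PRDX6, which uses glutathione in place of thioredoxin, came nearest in LNCaP at 0.40 ± 0.14 (adjusted p 0.126). PRDX4, the peroxiredoxin of the endoplasmic reticulum, came nearest in 22Rv1, where its treated libraries did not overlap the controls (0.38 ± 0.14, adjusted p 0.102). PRDX1, PRDX2, PRDX3 and PRDX5 had log2 fold changes from -0.08 to 0.34 in LNCaP and from -0.21 to 0.37 in 22Rv1. In both lines the treated libraries lay below all controls for PRDX1 and above them for PRDX5, and overlapped them for PRDX2 and PRDX3. Over all tested genes the arms were apart for 19.4% in LNCaP and 23% in 22Rv1. In DMSO, PRDX6 was at 1944, 1563 and 1469 CPM in LNCaP and 1223, 941 and 1165 in 22Rv1. PRDX4 was at 383, 429 and 359 CPM in LNCaP and 271, 249 and 261 in 22Rv1. Both were higher in LNCaP by log2 differences of 0.58 ± 0.14 and 0.58 ± 0.13, and PRDX2 was lower by -0.43 ± 0.12 (adjusted p 0.00436).

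Of the superoxide dismutases, neither SOD1 of the cytosol nor SOD2 of the mitochondria was called after treatment. SOD1 was at a log2 fold change of 0.01 ± 0.17 in LNCaP and of 0.24 ± 0.16 in 22Rv1, and SOD2 was at 0.41 ± 0.32 and -0.26 ± 0.30. In DMSO, SOD2 was at 42.3, 57.6 and 36.4 CPM in LNCaP controls and 74.6, 125 and 47.7 in 22Rv1 controls. These overlapped, and the log2 difference of -0.86 ± 0.28 (adjusted p 0.0100) did not pass the threshold with limma-trend or when 22Rv1 DMSO replicate 2 (0.201) or LNCaP DMSO replicate 3 (0.0598) was left out (range over the alternatives 0.000408 to 0.201).

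Among the genes grouped here with NADPH supply, TKT rose in 22Rv1. TKT (ENSG00000163931.17, chromosome 3, 53224712 to 53256052, minus strand) encodes transketolase of the nonoxidative pentose phosphate pathway. It was at 809, 801 and 933 CPM in 22Rv1 controls and at 1309, 1335 and 1184 after SEL120-34A, without overlap. Mean levels were 848 ± 73.8 and 1276 ± 80.9 CPM (SD), a log2 rise of 0.60 ± 0.12 (SE) with an adjusted p of 0.000906. In LNCaP, TKT was at 552, 662 and 608 CPM with DMSO and at 542, 575 and 560 with SEL120-34A, with overlap (-0.08 ± 0.13, 95% interval -0.34 to 0.17). The interaction was -0.68 ± 0.17 (adjusted p 0.0461). It was kept without 22Rv1 SEL120-34A replicate 3 (0.0323) and lost without any of the other 11 libraries (0.0543 to 0.175).

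The other genes grouped with NADPH supply were not called after treatment but differed between the untreated lines. ME1, cytosolic malic enzyme, was at 94.4, 102 and 129 CPM in LNCaP controls and at 15.7, 9.36 and 11.9 in 22Rv1 controls, where it had 5 to 10 counts. This was the largest difference among the genes described here, 3.13 ± 0.27 on the log2 scale (8.77-fold, adjusted p 1.05e-12), and PC3 was at 119 CPM, near LNCaP. TALDO1, transaldolase of the same branch as TKT, was at 723, 626 and 618 CPM in LNCaP and 351, 311 and 314 in 22Rv1 (1.02 ± 0.13, adjusted p 1.82e-08). The opposite order held for PGD, 6-phosphogluconate dehydrogenase, at 131, 154 and 152 CPM in LNCaP and 238, 165 and 262 in 22Rv1 (-0.62 ± 0.16), and for TKT (-0.49 ± 0.12). No library of 1 line overlapped the other for any of these 4 genes. The TKT to TALDO1 count ratio was accordingly 0.936 ± 0.153 in LNCaP controls and 2.62 ± 0.338 in 22Rv1 controls. After SEL120-34A it was 3.25 ± 0.369 in 22Rv1, with overlap (exact two-sided permutation p 0.2).

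**Figure D4:**
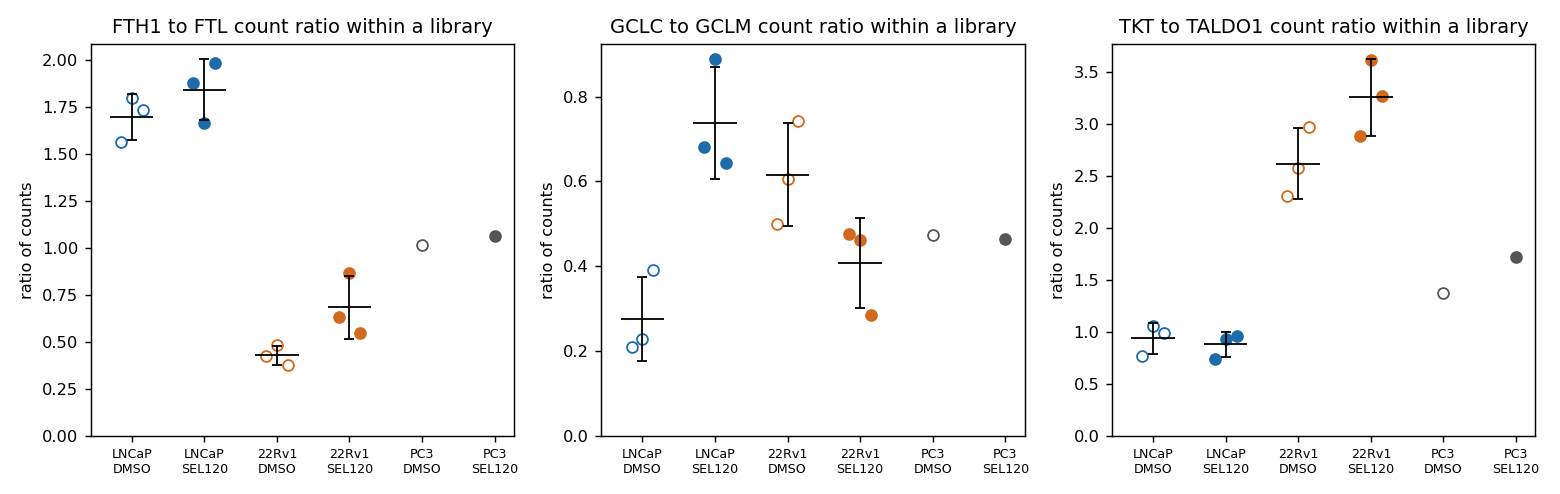
Ratio of counts within each library for the ferritin chains, the subunits of glutamate-cysteine ligase, and TKT with TALDO1, 1 point per library, open for DMSO and filled for SEL120-34A; bars are mean and SD of 3 libraries. The mean GCLC to GCLM ratio is 0.276 with DMSO and 0.738 with SEL120-34A in LNCaP, and 0.616 and 0.408 in 22Rv1, and the FTH1 to FTL ratio was below 1 in all 22Rv1 libraries.

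Of the glutathione transferases among the 34 genes and the exporter ABCC1, 6 were tested, and none was called after treatment in either line. Between the untreated lines 4 of the 6 were called, 3 higher and 1 lower in LNCaP, where 49% of all tested genes were. MGST1, a microsomal transferase, was at 792, 775 and 783 CPM in LNCaP controls and 175, 139 and 148 in 22Rv1 controls (log2 difference 2.36 ± 0.13, 5.12-fold, adjusted p 2.20e-18). MGST2 was at 242, 186 and 232 CPM in LNCaP and 112, 82.4 and 104 in 22Rv1 (1.16 ± 0.16). GSTK1, a transferase of mitochondria and peroxisomes, ran the other way, at 50.7, 49.7 and 33.6 CPM in LNCaP and 70.7, 112 and 109 in 22Rv1 (-1.15 ± 0.23, adjusted p 7.52e-05). None of these 3 overlapped between the lines. MGST3 was higher in LNCaP by a smaller log2 difference (0.49 ± 0.16, adjusted p 0.0128), and GSTO1 was not called (-0.05 ± 0.17). The MGST3 call was lost in 5 of 24 alternatives, which were library totals (0.158), no filter (0.0614), DESeq2 (0.0597), thinned libraries (0.317) and 22Rv1 DMSO replicate 3 left out (0.0686). After SEL120-34A, the 6 tested genes of this group ran in log2 fold change from -0.07 to 0.27 in LNCaP and from -0.53 to 0.37 in 22Rv1. In DMSO, ABCC1, which exports glutathione conjugates, was at 33.8, 31.4 and 23.8 CPM in LNCaP and 15.7, 24.3 and 16.7 in 22Rv1. These overlapped and were not called (0.65 ± 0.39, adjusted p 0.165).

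GSTP1, the pi class transferase, had 4, 2 and 2 counts in the LNCaP controls and 1, 1 and 2 in the 22Rv1 controls. The treated libraries had 0, 0 and 2 counts in each line. PC3 had 535 counts with DMSO and 314 with SEL120-34A, that is 582 and 551 CPM. No test was made between the lines, since PC3 has 1 library per arm and was not part of the model.

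In PC3, 30 of the genes had at least 20 counts in 1 library, and none changed by 2-fold, against 3.65% of all 6495 genes with such counts, 1.17% higher and 2.48% lower. With no replicate there is no test, and the intervals below cover at most counting error. Of these 30, 15 were higher and 15 lower after SEL120-34A, with a median log2 ratio of -0.02 and a range from -0.65 to 0.38. MT2A, which was called in LNCaP, had the lowest ratio of these 30. The log2 ratio was 0.19 for GCLC (95% interval -0.70 to 1.08) and -0.65 for MT2A (-1.47 to 0.05). It was -0.12 for FTH1 (-0.24 to -0.01), -0.19 for FTL (-0.31 to -0.07), 0.34 for TXN (0.09 to 0.59) and 0.20 for TKT (-0.01 to 0.40). FTH1 and FTL had their highest levels of all lines in the PC3 control, at 1798 and 1771 CPM.

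The genes described here together held 1.03 ± 0.0373% of all counts in LNCaP controls and 1.13 ± 0.0587% after SEL120-34A. In 22Rv1 the share was 0.955 ± 0.0348% and 1.02 ± 0.0299%. The arms of neither line overlapped, and these shares are a description without a test. Without FTH1 and FTL the arms overlapped in both lines, at 0.842 to 0.898% and 0.886 to 0.964% in LNCaP and at 0.768 to 0.819% and 0.816 to 0.838% in 22Rv1. In PC3 the share was 1.36% (95% Wilson interval 1.34 to 1.39) and 1.31% (1.28 to 1.34). FTH1 and FTL alone held 0.154 ± 0.00849% and 0.221 ± 0.0154% of counts in LNCaP and 0.160 ± 0.00946% and 0.192 ± 0.0201% in 22Rv1.

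A wider list of 107 other genes of the pathway, among them glutaredoxins, glutathione peroxidases, further transferases and aldo-keto reductases, had 62 tested genes. In LNCaP, 4 of these 62 (6.45%) rose and none fell, where 2.77% of all tested genes were called, 1.99% with a rise. TXNL1, a thioredoxin-like protein of the proteasome, was at 265, 283 and 284 CPM in controls and 600, 453 and 353 after treatment (0.76 ± 0.15, adjusted p 0.00165). GPX4, the peroxidase that reduces lipid peroxides, was at 551, 482 and 475 CPM and then 733, 710 and 615 (0.47 ± 0.13, adjusted p 0.0404). GSTA1 and GSTA4, alpha class transferases, rose by 1.82 ± 0.40 and 1.21 ± 0.29. All 4 had treated libraries above all controls, and GSTA1, similar to its paralogs, had at most 1 count in any 22Rv1 or PC3 library. Left-out libraries ended the call of TXNL1 in 1 case (LNCaP SEL120-34A replicate 1, adjusted p 0.0605), of GPX4 in 5 (up to 0.206), of GSTA1 in 2 (up to 0.173) and of GSTA4 in 3 (up to 0.0880). Over all alternatives, the call was lost in 2 of 25 for TXNL1 and 11 of 25 for GPX4 (up to 0.276). It was lost in 3 of 23 for GSTA1 and 5 of 24 for GSTA4 (up to 0.298).

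In 22Rv1, 4 of the 62 (6.45%) also rose and none fell, where 5.7% of all tested genes were called, 4.15% with a rise, so the share was near that of all genes. GLRX, glutaredoxin, which removes glutathione from proteins, was at 13.7, 24.3 and 14.3 CPM in controls and 60.6, 60.1 and 59.9 after treatment (1.81 ± 0.33, adjusted p 0.000296). This rise was kept without any single library. GLRX5, the glutaredoxin of mitochondrial iron-sulfur assembly, rose by 0.52 ± 0.14, EPHX1, an epoxide hydrolase, by 0.78 ± 0.23 and CBR1, a carbonyl reductase, by 0.61 ± 0.19. The last 3 were close to the threshold (adjusted p 0.0171, 0.0298 and 0.0462), and leaving out 1 library ended the call in 4, 4 and 10 of 12 cases. Over all 25 alternatives, the call was lost in 7 for GLRX5, 9 for EPHX1 and 19 for CBR1. The interaction was called for TXNL1 alone of the 62 (0.93 ± 0.22, adjusted p 0.0317). Between the untreated lines, 35 of the 62 (56.5%) differed, 20 higher and 15 lower in LNCaP, where 49% of all tested genes did.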

How the data were processed

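Messenger RNA of LNCaP, 22Rv1 and PC3 cells was sequenced from 3′ tags (BRB-seq, in which samples are barcoded early and pooled). Per the study's methods and the processing notes of the labels, the authors aligned and counted reads with STARsolo on GRCh38.p13 with GENCODE release 43. The deposited counts are raw whole numbers per gene for 62703 genes. The authors also deposited log2 CPM values for 9638 genes, used here for 1 alternative, and recomputing them with edgeR (prior count 2) gave the same values to within 5e-14. Whether molecular identifiers were collapsed is not given in the sources used here. Intervals for PC3 and for shares of counts cover at most counting error, and without collapsing they may be too narrow even for that. Intervals of the fitted fold changes carry the spread between libraries. Gene positions come from GENCODE release 44, where all 34 identifiers had the same version.

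The genes and the wider list were chosen with earlier results of these data known. The 12 LNCaP and 22Rv1 libraries were fitted in 1 model with a mean for each group (edgeR 4.0.16 in R 4.3.3, TMM scaling, low-count filter, quasi-likelihood F-test, 8 residual degrees of freedom). The contrasts compared SEL120-34A with DMSO within LNCaP and within 22Rv1, these responses with each other, and DMSO between the lines, which shares its libraries with the others. P-values were Benjamini-Hochberg adjusted over all 7086 tested genes, with a threshold of 0.05. PC3 was described by log2 ratios with a prior count of 2 and intervals at 95%. Library values were printed for genes called in a treatment contrast, for further genes with the largest difference between untreated lines, and for NFE2L2 and KEAP1. Genes of the wider list, of which 106 of 107 were in the table, were named where called. A permutation test planned for the share of counts was not used, since the share is a score over the listed genes.

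Other settings tried were a block for the replicate number, other scalings (DESeq2 size factors, library totals), other filters, each line alone, PC3 added, DESeq2 1.42.0, limma-trend (limma 3.58.1), thinning, removal of mitochondrial or ferritin genes, each library left out, and pseudogene counts added to FTH1 and FTL, the last chosen after seeing the data. The libraries of an arm differed by more than sampling noise (chi-square per degree of freedom 1.29 to 2.44), and none was counted as a duplicate. Promoter windows are RefSeq's. FTH1, ABCC1, PRDX6, HMOX1, MGST2, GSS, GSR, SOD1 and PRDX1 had no entry. SRXN1 overlaps another gene model on its strand that also had 0 counts.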

Additional observations from a re-analysis of the deposited data

Results flagged for a closer look

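For 4 genes the response to SEL120-34A differed between LNCaP and 22Rv1 by the test of the difference itself (edgeR, LNCaP response minus 22Rv1 response on the log2 scale, adjusted over all tested genes). The difference was 1.82 ± 0.46 (SE) for GCLC, 1.79 ± 0.41 for MT2A, 0.93 ± 0.22 for TXNL1 and -0.68 ± 0.17 for TKT. GCLC, MT2A and TXNL1 rose in LNCaP, in 3 of 3 treated libraries above all controls, and TKT rose in 22Rv1, likewise in 3 of 3. In the other line the arms of all 4 genes overlapped. TXNL1 was at 344, 286 and 352 CPM in 22Rv1 controls and 298, 292 and 282 after treatment. The adjusted p-values were 0.0450, 0.0237, 0.0317 and 0.0461 for GCLC, MT2A, TXNL1 and TKT. Over the alternatives they ranged from 0.0258 to 0.436, from 0.00639 to 0.155, from 0.000895 to 0.175 and from 0.0160 to 0.175. The difference kept its direction in every alternative that gave the gene an adjusted p. All 3 treated 22Rv1 libraries were shallower than their controls. In LNCaP, totals were 291056 to 519928 with SEL120-34A and 412881 to 759548 with DMSO. With all libraries thinned to 246063 counts, the adjusted p was 0.436 for GCLC, 0.0877 for MT2A, 0.0652 for TXNL1 and 0.0241 for TKT.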

How the results depend on the processing

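All called genes kept their direction in every alternative that gave them an adjusted p. In LNCaP, 4 genes were called, against 2 with at least 10 counts in every library (GCLC and MT2A were then not tested), 1 (GCLC) with limma-trend, 2 with FTH1 and FTL removed, and 3 to 5 with 1 library left out. In 22Rv1 the count was 3 with any library left out. Library totals added PRDX1, which was not called in the main model, where its log2 fold change was -0.21. For the difference between the lines, 3 genes became 1 without a filter, 0 with at least 10 counts in every library, 1 with DESeq2 (which gave no adjusted p for GCLC and MT2A), 0 with limma-trend, 1 with thinned libraries and 0 to 2 with 1 library left out. Between the untreated lines, 21 became 19 to 22 with 1 left out. The median log2 fold change moved to -0.051 (LNCaP), -0.077 (22Rv1) and 0.067 (untreated lines) with library totals, which shifted the median of all genes by -0.09, -0.15 and -0.21. It was 0.13 in thinned LNCaP libraries and 0.16 for the difference with at least 10 counts. With 1 library left out it ran from 0.031 to 0.16 in LNCaP, 0.046 to 0.15 in 22Rv1, 0.02 to 0.15 for the difference and 0.27 to 0.44 between untreated lines. The share of counts with SEL120-34A minus that with DMSO was 0.106 percentage points in LNCaP, 0.0615 in 22Rv1 and -0.0557 in PC3. Without mitochondrial counts these were 0.205 and 0.103 in LNCaP and 22Rv1, and without FTH1 and FTL they were 0.0393 in LNCaP, 0.0291 in 22Rv1 and -0.00981 in PC3.

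With the replicate number as a block, 5 genes were called in LNCaP (PRDX6 was added), 3 in 22Rv1, 3 for the difference and 21 between the untreated lines. Deviations of same-numbered libraries correlated at 0.0847, -0.0479 and 0.115 in LNCaP and 0.0208, -0.0128 and 0.0334 in 22Rv1, so the numbers were not shown to pair the libraries. The cause of these changes was not tested. HMOX1 rested on 2 to 12 counts per LNCaP or 22Rv1 library. A count of 0 (read as up to 3 counts) allowed a level of up to 3.27 CPM in the deepest and 12.9 CPM in the shallowest library.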
